A study of Mus musculus with 3 samples.

Results

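The cells described are activated and regulatory CD4 T cells of the irradiated mouse lung, chosen from single-cell RNA libraries by which transcripts a cell carried. A cell was taken as a T cell when at least 1 of the CD3 genes Cd3e, Cd3g and Cd3d was above 0, and it was set aside when Cd8b1 of CD8 T cells, Trdc or Cd163l1 of gamma delta T cells, Cd79a of B cells or C1qa of macrophages was above 0. Of the 2093 T cells left, termed gated T cells, those with at least 2 of the 7 genes Ctla4, Icos, Tnfrsf4, Ikzf2, Tnfsf8, Izumo1r and Foxp3 above 0 were the members. There were 1212 members among 19622 cells. They were divided into 206 Foxp3-positive and 1006 Foxp3-negative members, and the other 881 gated T cells served for comparison.

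The libraries came from lungs of female C57BL6/J mice labelled WT (wild type), 1 mouse and 1 library in each group, taken 5 months after irradiation of the whole thorax with 13 Gy. In CONV the dose was given at the conventional rate, and in FLASH at an ultra-high rate. CONV AsiDNA received the conventional rate with intraperitoneal AsiDNA, a short double-stranded DNA that mimics a broken end and draws repair proteins away from the chromosomes, with 1 dose of 100 mg/kg per day for 2 days and then 200 mg/kg when irradiated. All 3 mice were irradiated and lungs of unirradiated mice were not analysed here. With 1 mouse a group there is no test between the groups, so differences between libraries are differences between 3 mice.

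CD4 T cells recognise peptides on MHC class II and, once activated, display costimulatory and inhibitory receptors. Ctla4 competes with CD28 for its ligands, Icos and Tnfrsf4 (OX40) carry survival and helper signals, and Tnfsf8 is the CD30 ligand. Regulatory T cells depend on the transcription factor Foxp3 and often carry Ikzf2 (Helios) and Izumo1r (folate receptor 4). In barrier tissues such as the lung many of them respond to IL-33 through its receptor Il1rl1 and make amphiregulin, encoded by Areg, a growth factor for epithelium.

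Positions of the main genes are those of the mm10 genome. Foxp3 is on the X chromosome, from 7573644 to 7595245 on the plus strand. Cd28, Ctla4 and Icos are neighbours on chromosome 1, at 60716800 to 60773359, 60887000 to 60915832 and 60977927 to 61000320, and Ikzf2 and Pdcd1 lie on the minus strand of that chromosome at 69531214 to 69687245 and 94038305 to 94052553. The receptor genes Tnfrsf4 and Tnfrsf18 are adjacent on chromosome 4, at 156013843 to 156016612 and 156026164 to 156028895. Values were counted per gene and do not separate exons from introns or UTRs.

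Values from the 3 libraries are given in the order CONV, CONV AsiDNA and FLASH, and a gene counts as detected in a cell when its value is above 0. The files held 6372, 6983 and 6267 cells, with medians of 3450 to 3678 adjusted counts and 1236 to 1339 genes a cell. An adjusted count is the whole number behind each deposited log value, and the step by which the authors adjusted the counts is not stated in the labels or in the methods, and the latter cite an earlier description that was not read. Some genes were listed at 0 in every cell of a library and high in another, so a value of 0 need not mean that a transcript was absent. Cells were kept with at least 200 genes and at most 20% mitochondrial counts, which left out 3 cells. Levels are CPM of the adjusted counts summed over the cells of a group (adjusted CPM), and a log2 ratio between libraries is that of adjusted CPM plus 10. The libraries shared 9 to 17 cell barcodes a pair. The 95% intervals of shares (exact Clopper-Pearson) cover the sampling of cells from 1 mouse only.

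The label of CD4 T cells was checked against markers and held in part. T cell receptor alpha or beta chain transcripts (Trac, Trbc1 or Trbc2) were detected in 99.6%, 99.7% and 99.4% of the members. Cd4 itself was above 0 in 35.3%, 35.8% and 42.7% of members, against 21.9%, 19.5% and 26.1% of other gated T cells. The transcripts of innate-like T cells went against the name in some Foxp3-negative members, since at least 1 of Tcrg-C1, Tcrg-C2, Tcrg-C4 and Zbtb16 was above 0 in 20.8%, 29% and 23.7% of them, and in 0%, 3.85% and 0% of Foxp3-positive members. The members are therefore a set of cells defined by its rule, most without a Cd4 transcript in the file, and not a purified CD4 lineage.

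Markers of most other cells were low in the members, with exceptions. Summed over the genes of each list, macrophage and monocyte markers reached at most 1.64 adjusted CPM, and neutrophil and mast cell markers were listed at 0 in all 3 libraries. NK cell markers summed to 90.5, 94.4 and 92.3 adjusted CPM in Foxp3-negative members and were listed at 0 in Foxp3-positive members. B cell markers summed to 15.8, 112 and 0 adjusted CPM in members, with 63.6, 236 and 0 in Foxp3-positive and 5.19, 89.2 and 0 in Foxp3-negative members. The sums of dendritic cell markers, which include MHC class II genes, were 0, 171 and 1.64, and both lists were highest in CONV AsiDNA. The dendritic markers there were in Foxp3-negative members, at 0, 202 and 1.92 adjusted CPM, and were listed at 0 in Foxp3-positive members. Fibroblast and muscle markers summed to 0, 0 and 41 in members, apart in FLASH and all in Foxp3-negative members, and endothelial markers to 45.5, 29 and 28.7. The list of group 2 innate lymphoid cells, which shares Il1rl1, Gata3, Areg and Cxcr6 with tissue regulatory T cells, summed to 2056, 640.2 and 1298 in Foxp3-positive and 581, 701 and 776 in Foxp3-negative members. Gamma delta T cell markers summed to 125, 217 and 193 in Foxp3-negative and 10.0, 23.1 and 0 in Foxp3-positive members. The B cell constant region Ighm was above 0 in 0%, 23.1% and 0% of Foxp3-positive members. No doublet caller was run. An alternative left out cells with Cd8a, Lyz2, Sftpc, Cd79b, Ms4a1, Cldn5, Ncr1, Il13 or Il5 above 0. There 20 of the 20 genes named for the largest differences between Foxp3-positive and Foxp3-negative members still passed the limma test. The share of members in CONV AsiDNA was then 4.77% beside 4.80%. Ighm, MHC class II and gamma chain genes were not among those markers, so the part of cells carrying them was not tested by it.

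The members made up 8.10% in CONV (95% interval 7.44% to 8.80%), 4.80% in CONV AsiDNA (95% interval 4.31% to 5.33%) and 5.76% in FLASH (95% interval 5.20% to 6.37%) of the cells kept, so the share was highest in CONV and lowest in CONV AsiDNA. Gated T cells as a whole had the same order, with 13.5%, 8.11% and 10.7%. Within the gated T cells the members' share was 60.1% in CONV (95% interval 56.7% to 63.4%), 59.2% in CONV AsiDNA (95% interval 55% to 63.3%) and 54% in FLASH (95% interval 50.2% to 57.9%), and these intervals overlap. Fewer T cells and more of other cells cannot be told apart in such shares.

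The Foxp3-positive members numbered 97, 52 and 57. They were 18.8% in CONV (95% interval 15.5% to 22.4%), 15.5% in CONV AsiDNA (95% interval 11.8% to 19.9%) and 15.8% in FLASH (95% interval 12.2% to 20.0%) of the members. The 3 intervals overlap. As a share of all cells kept they were 1.52% in CONV (95% interval 1.24% to 1.85%), 0.745% in CONV AsiDNA (95% interval 0.557% to 0.976%) and 0.910% in FLASH (95% interval 0.690% to 1.18%), where the CONV interval lies above both others, as for the members as a whole. With 1 mouse a group neither share can be tested between groups. Outside the rule 7, 6 and 1 cells were Foxp3-positive. Foxp3 was listed at 0 in all Cd79a-positive cells without CD3 genes or C1qa, and in all C1qa-positive cells without CD3 genes or Cd79a. They are termed B cells and macrophages here, and their median totals were 2830 to 3939 adjusted counts. Whether these zeros were left by the adjustment was not tested, so they set no background level. Every Foxp3-positive gated T cell carried at least 1 other gene of the 7.

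**Figure D1:**
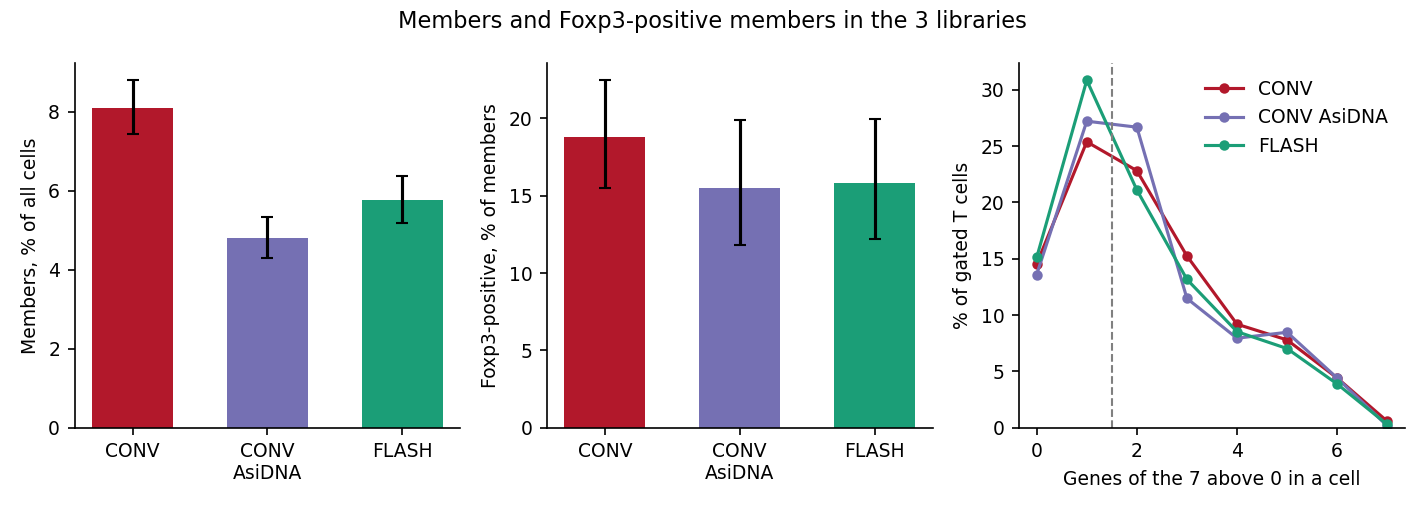
Members as a percent of the cells kept (left), Foxp3-positive members as a percent of members (middle) and the percent of gated T cells with 0 to 7 of the 7 genes above 0 (right, with the rule's threshold dashed), for the 3 libraries. Bars show exact 95% intervals; the CONV share of members, 8.10%, is the highest and its interval lies above the others, while the Foxp3-positive shares overlap.

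The rule has a threshold at 2 of 7 genes, and the cells on its sides were alike in several respects. There were 218, 154 and 206 gated T cells with exactly 1 gene and 196, 151 and 141 with exactly 2. Cd4 was above 0 in 22.9%, 20.1% and 24.3% of the cells with 1 gene and in 25.5%, 17.9% and 31.2% of the cells with 2. Tnfrsf18, the receptor GITR, was above 0 in 31.7%, 30.5% and 27.7% with 1 gene and 34.2%, 31.8% and 34% with 2. Icos, 1 of the 7 genes, was above 0 in 55%, 55.8% and 60.2% of cells with 1 gene and 80.1%, 86.8% and 83.7% of cells with 2. Its share on each side follows in part from the count itself, so no likeness is read from it. There was no gap in the number of cells at the threshold. Foxp3-positive members had a mean of 4.99, 4.94 and 5.12 of the 7 genes, Foxp3 included, against 2.90, 2.89 and 2.92 in Foxp3-negative members.

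The genes of the rule differed between both classes of members, which is given as a description because they chose the cells. Ctla4 was above 0 in 97.9%, 92.3% and 96.5% of Foxp3-positive and 72.1%, 51.9% and 56.9% of Foxp3-negative members. Tnfrsf4 was above 0 in 86.6%, 78.8% and 75.4% of Foxp3-positive and 32.9%, 27.9% and 34.2% of Foxp3-negative members. Icos, by contrast, was above 0 in 60.8%, 80.8% and 82.5% of Foxp3-positive and 81.9%, 85.2% and 84.2% of Foxp3-negative members. Ikzf2 was above 0 in 90.7%, 86.5% and 87.7% of Foxp3-positive and 37.9%, 61.8% and 49.3% of Foxp3-negative members. A Foxp3-negative member had to carry 2 of the remaining genes, so nothing is read from these shares.

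Foxp3-positive and Foxp3-negative members differed in genes of regulatory and of effector T cells that the rule had not used. Klrg1 was above 0 in 21.2% to 36.1% of Foxp3-positive members and in 1.19% to 1.77% of Foxp3-negative members, and Il1rl1 in 19.2% to 38.1% and 1.77% to 5.26%. Most genes of T helper 17 and cytotoxic cells were lower in Foxp3-positive members, in part through listings at 0. The sums of Foxp3-positive and Foxp3-negative members were compared with limma, paired by mouse and leaving out the genes of the rule. This test has 2 residual degrees of freedom and asks for a difference alike in 3 mice of different treatment. Of 8351 genes, 191 (2.29%) rose in Foxp3-positive members at a limma adjusted p under 0.05 and 241 (2.89%) fell, around a median log2 difference of -0.03. Foxp3-positive members had lower median totals than Foxp3-negative members, 2960, 3360 and 3221 against 3274, 3507 and 3482. With every cell thinned to 1000 adjusted counts 19 genes rose and 31 fell, and with Cd4 also required 51 rose and 55 fell. Without cells carrying innate-like T cell genes 157 fell, and with 3 of the 7 genes required 140 fell. Without the CONV library 87 rose and 124 fell. Of the 20 genes named for the largest changes, 11 still passed with thinned cells and 10 of the 18 that could be tested passed with Cd4 required. Where 1 direction is given for a list of genes, no gene of it passed the test in the other.

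The gene with the largest rise was Klrg1, an inhibitory lectin-like receptor of highly differentiated T cells. It was above 0 in 36.1%, 21.2% and 24.6% of Foxp3-positive members and in 1.19%, 1.77% and 1.32% of Foxp3-negative members. The libraries of both classes did not overlap, and Klrg1 rose by 3.45 ± 0.25 SE (adjusted p = 9.5e-10) on the log2 scale in limma. Il1rl1, the IL-33 receptor, was above 0 in 38.1%, 19.2% and 33.3% of Foxp3-positive members and 2.63%, 1.77% and 5.26% of Foxp3-negative members, a limma log2 difference of 2.85 ± 0.26 SE (adjusted p = 2.7e-08). Areg was above 0 in 34%, 11.5% and 17.5% against 7.16%, 0.353% and 2.30%, a limma log2 difference of 3.07 ± 0.20 SE (adjusted p = 1.5e-10). At least 1 of Il1rl1, Klrg1 and Areg was above 0 in 67%, 36.5% and 45.6% of Foxp3-positive members and in 8.11%, 2.83% and 6.91% of Foxp3-negative members. Each of the 3 genes was most frequent in CONV and least frequent in CONV AsiDNA among Foxp3-positive members.

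Some regulatory genes that the rule had not used rose with Foxp3, 8 of the 18 tested. Ikzf4 (Eos), a partner of Foxp3 in repression, was above 0 in 36.1%, 25% and 22.8% of Foxp3-positive members, against 3.82%, 3.18% and 3.62%, a limma log2 difference of 2.54 ± 0.27 SE (adjusted p = 3.8e-07). Tnfrsf9 (4-1BB), a costimulatory receptor induced by activation, was above 0 in 49.5%, 19.2% and 21.1% against 7.40%, 4.59% and 2.63%, a limma log2 difference of 2.72 ± 0.32 SE (adjusted p = 1.3e-04). Tnfrsf18 was above 0 in 87.6%, 71.2% and 66.7% against 40.6%, 41% and 40.1%, a limma log2 difference of 1.57 ± 0.16 SE (adjusted p = 2.6e-07). Il2ra, the high-affinity chain of the IL-2 receptor, was above 0 in 48.5%, 48.1% and 33.3% against 17.7%, 23% and 24.7%, a limma log2 difference of 1.03 ± 0.19 SE (adjusted p = 9.9e-04). Of the 10 genes named for the largest rises, Klrg1, Areg and Arl5a passed under all 15 alternatives tried. The remaining genes among the 10 largest rises were Neb, which encodes the muscle filament protein nebulin (3.27), Ncmap (2.43), Tent5a (2.36), the small GTPase Arl5a (2.32) and the opioid precursor Penk (2.22). Neb was above 0 in 20.6%, 21.2% and 24.6% of Foxp3-positive members and in 1.91%, 0.353% and 0.987% of Foxp3-negative members.

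In the list of regulatory T cell genes, 8 of 18 tested genes rose, with a median log2 difference of 1.03. The genes of the list that rose were Il2ra, Tnfrsf1b, Tnfrsf9, Tnfrsf18, Lrrc32, Ikzf4, Itgb8 and Tigit. In tissue regulatory T cell genes, 7 of 17 tested genes rose and 1 fell, with a median log2 difference of 0.94. The gene that fell was the chemokine receptor Cxcr6, at -2.12 ± 0.19 SE (adjusted p = 2.4e-08) in limma. Cxcr6 was above 0 in 9.28%, 17.3% and 12.3% of Foxp3-positive members and in 37%, 43.1% and 41.4% of Foxp3-negative members. Gata3, which many tissue regulatory cells carry, was above 0 in 59.8%, 55.8% and 61.4% against 32%, 47.3% and 46.7% and did not pass the test, with a limma log2 difference of 1.00 ± 0.33 SE (adjusted p = 0.236). Il10, the inhibitory cytokine, was above 0 in 8.25%, 0% and 7.02% of Foxp3-positive members and did not pass either (limma adjusted p = 0.0853).

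**Figure D2:**
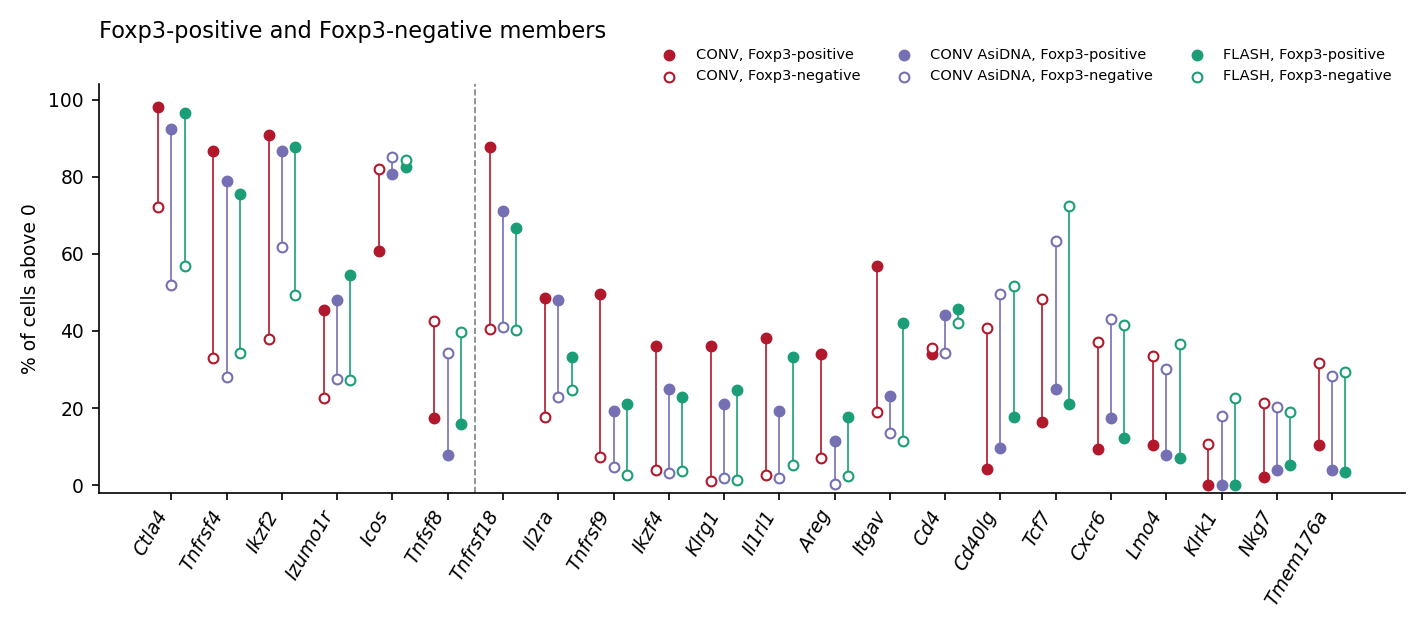
Percent of Foxp3-positive and Foxp3-negative members above 0 for the genes of the rule (left of the dashed line) and for genes not used by the rule, 1 point a library. Klrg1, Il1rl1 and Ikzf4 lie higher in Foxp3-positive members in all 3 libraries, and Tcf7, Cxcr6 and Nkg7 lie lower.

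The genes with the lowest log2 differences included receptors and a cytokine of effector T cells. Klrk1, the activating receptor NKG2D, was listed at 0 in Foxp3-positive members of every library and above 0 in 10.7%, 18% and 22.7% of Foxp3-negative members (limma adjusted p = 1.9e-08). The cytokine Il17a was also listed at 0, against a share of 5.73%, 4.95% and 2.30% (limma adjusted p = 1.2e-07), as was the memory marker Ly6c2, against 6.92%, 7.77% and 3.29% (limma adjusted p = 1.3e-07). Klrk1, Il17a and Ly6c2 entered the test through Foxp3-negative members alone, so no fall is read from them. By the number of cells alone, a listing at 0 allows a share of up to 3.09%, 5.77% and 5.26%, so the Foxp3-negative shares of Il17a in CONV AsiDNA and FLASH and of Ly6c2 in FLASH lie within what a 0 allows, and a difference was not detectable in those libraries taken singly. The other genes with the lowest log2 differences were Trgv2 (-3.26) and Tcrg-C1 (-2.66) of the gamma chain locus, Lmo4 (-3.26), Tmem176a (-2.96), Actn2 (-2.85), the granule gene Nkg7 (-2.76) and Tmem176b (-2.66). Tmem176a, which T helper 17 cells carry, was above 0 in 10.3%, 3.85% and 3.51% of Foxp3-positive members and 31.7%, 28.3% and 29.3% of Foxp3-negative members, a limma log2 difference of -2.96 ± 0.23 SE (adjusted p = 7.9e-09).

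Some genes of effector T cells were lower in Foxp3-positive members, and so were gamma delta T cell markers, in part through listings at 0. In gamma delta T cell markers, 4 of 4 tested genes were lower past the limma threshold, with a median log2 difference of -2.01. Of the 7 genes of that list 5, 4 and 7 were listed at 0 in Foxp3-positive members. The median therefore rests mostly on zeros, and no fall is read from it. All 5 tested NK cell markers were listed at 0 in Foxp3-positive members, and 4 passed the test. They entered it through Foxp3-negative members alone, so no median is given and no fall is read from them. Zbtb16, the factor of innate-like T cells, was likewise listed at 0 in Foxp3-positive members, and no fall is read from it. It was above 0 in 6.44%, 12% and 9.54% of Foxp3-negative members (limma adjusted p = 5.8e-05). The counts in the lists that follow include genes listed at 0 in Foxp3-positive members. Here and below, a median without genes listed at 0 leaves out only those at 0 in every library. In Foxp3-positive members 3, 6 and 6 of 11 T helper 17 genes were listed at 0, and 8, 9 and 10 of 13 cytotoxic genes. The counts and both medians of these lists therefore rest in part on zeros. The part of innate-like cells and of other lymphocytes in each list was not tested. In T helper 17 genes, 7 of 11 tested genes fell, with a median log2 difference of -1.44, or -1.62 without genes listed at 0. In cytotoxic genes, 8 of 12 tested genes fell, with a median log2 difference of -1.67, or -1.89 without genes listed at 0. In T helper 1 genes, 1 of 11 tested genes rose and 5 fell, with a median log2 difference of -1.07, or -0.72 without them. The T helper 1 gene that rose was Hopx, a homeodomain protein also used by induced regulatory T cells, at 1.83 ± 0.20 SE (adjusted p = 6.1e-07) in limma. In cytokines, 1 of 15 tested genes rose and 7 fell, with a median log2 difference of -0.90, or -0.04 without genes listed at 0, and Areg was the one that rose. Among those that fell were the growth factor Il2 (-2.37), above 0 in 1.03%, 0% and 0% of Foxp3-positive and 8.59%, 4.24% and 9.21% of Foxp3-negative members, and Ifng (-1.89). Il2, Ifng and Il17a were each detected in a minority of Foxp3-negative members.

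In naive and recirculating genes, 7 of 16 tested genes fell, with a median log2 difference of -0.56. Tcf7, the factor TCF1 of naive and memory cells, was above 0 in 16.5%, 25% and 21.1% of Foxp3-positive members and 48.2%, 63.3% and 72.4% of Foxp3-negative members, a limma log2 difference of -1.96 ± 0.18 SE (adjusted p = 2.7e-08). Satb1, a chromatin organiser, had -1.57 and Il7r, the IL-7 receptor, -0.79, both past the limma threshold. In costimulatory and checkpoint receptors, 4 of 15 tested genes rose and 2 fell, with a median log2 difference of 0.43. Those that fell were Cd96 (-1.22) and Cd226 (-1.03), receptors for nectin family ligands. Tigit, which binds the same ligand family, rose by 1.37 ± 0.33 SE (adjusted p = 0.0117) in limma. In NF-kB and activation feedback genes, 3 of 14 tested genes rose and 3 fell, with a median log2 difference of 0.46. Nfkbia (1.18), Traf1 (1.00) and Birc3 (0.90) rose, and Bcl2a1d (-1.32), Bcl2a1b (-0.97) and Tnfaip8 (-0.67) fell, while with thinned cells Birc3 turned to -0.57. The copies Bcl2a1b and Bcl2a1d are near-identical genes, so reads may be split between them.

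The members as a whole were then set against the other gated T cells by the same paired limma test. Of 9302 genes, 491 (5.28%) rose in members and 163 (1.75%) fell. The median log2 difference was 0.07. Without the FLASH library 59 rose and 22 fell, so both counts fell steeply without that library. With thinned cells 318 rose, without cells carrying innate-like T cell genes 770 rose, and with 3 of the 7 genes required 333 fell. The median totals of members and other gated T cells were 3236, 3492 and 3472 against 3273, 3544 and 3482. Members had more genes detected a cell, with medians of 1165, 1333 and 1298 against 1090, 1282 and 1189.

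Genes of T cell receptor signalling and of follicular helper cells were among those that rose in members. Cd5, a receptor whose level follows the strength of receptor signalling, was above 0 in 38.6%, 52.8% and 52.9% of members and 23%, 27.7% and 30.9% of other gated T cells, a limma log2 difference of 1.00 ± 0.10 SE (adjusted p = 2e-07). In T cell receptor and proximal signalling genes, 8 of 18 tested genes rose, with a median log2 difference of 0.29. In T follicular helper genes, 8 of 13 tested genes rose, 2 of them listed at 0 in other gated T cells, with a median log2 difference of 0.76. Maf, a factor of helper and regulatory cells, was above 0 in 57.6%, 65.7% and 65.1% against 33.5%, 47.6% and 40.1%, a limma log2 difference of 0.99 ± 0.08 SE (adjusted p = 4.7e-08). Sostdc1 and the helper cytokine Il21 were listed at 0 in all other gated T cells (limma adjusted p = 1.5e-05 and 0.00810). They entered the test through members alone, so no rise is read from them. Il21 was also listed at 0 in Foxp3-positive members and was above 0 in 2.86%, 2.47% and 1.32% of Foxp3-negative members. Each of these shares lies within what a 0 allows by the number of Foxp3-positive cells, so a difference was not detectable.

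Gpm6b, a membrane glycoprotein, rose most in members, by 2.58 ± 0.19 SE (adjusted p = 3.6e-09) in limma. The other large rises were Eea1 (1.99) of early endosomes, Ifi27l2a (1.87), an interferon-stimulated gene, Tbc1d4 (1.83), which regulates GLUT4 transport, Klrg1 (1.82), the integrin chain Itgav (1.77) and Il1rl1 (1.65) on the log2 scale of limma. Ifi27l2a was above 0 in 46.7%, 41.5% and 44.9% of members and 20.4%, 19.5% and 22.1% of other gated T cells, while it was above 0 in 26.4%, 37.3% and 41% of the B cells and 48.4%, 63.7% and 60.6% of the macrophages, with the members of each library between those. Olfr655 (2.15), an olfactory receptor gene, rested on 4, 5 and 3 cells. Itgb8, which pairs with Itgav to release active TGF-beta, was above 0 in 16.5%, 7.69% and 19.3% of Foxp3-positive members and listed at 0 in all other gated T cells (limma adjusted p = 4.5e-06). Itgav was above 0 in 56.7%, 23.1% and 42.1% of Foxp3-positive, 19.1%, 13.4% and 11.5% of Foxp3-negative members and 8.75%, 3.03% and 5.86% of other gated T cells. Itgav was therefore higher in Foxp3-positive members than in other gated T cells of the same library. Itgb8 entered the test through members alone, and its listing at 0 sets no level to compare with.

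Some genes of cytotoxic and naive T cells fell in members. The chemokine Ccl4 fell most, at -2.39 ± 0.36 SE (adjusted p = 0.0360) in limma. Next were Igfbp4 (-1.68), Klrd1 (-1.62), the granzyme Gzmk (-1.62), Klrc2 (-1.59), Klrc1 (-1.42), Nkg7 (-1.37), the factor Eomes (-1.32), Klre1 (-1.29) and Dapl1 (-1.19), all past the limma threshold. Klrd1, Klrc1, Klrc2 and Klre1 are NK receptor genes. In cytotoxic genes, 7 of 12 tested genes fell, with a median log2 difference of -1.47. In naive and recirculating genes, 8 of 16 tested genes fell, with a median log2 difference of -0.57. Lef1, a factor of naive T cells, was above 0 in 23.6%, 30.7% and 29.9% of members and 44.9%, 38.5% and 45.3% of other gated T cells, a limma log2 difference of -0.94 ± 0.10 SE (adjusted p = 5.5e-07). In regulatory T cell genes, 9 of 18 tested genes rose, with a median log2 difference of 0.71, or 0.67 without genes listed at 0. In tissue regulatory genes, 10 of 17 tested genes rose, with a median log2 difference of 0.83, and in NF-kB genes, 9 of 14 tested genes rose, with a median log2 difference of 0.48. In cell cycle genes, 11 of 22 tested genes rose, with a median log2 difference of 0.63, but with thinned cells Mki67, Top2a, Tubb5, Tuba1b, Birc5, Cenpf, Nusap1 and Ube2c turned negative.

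**Figure D3:**
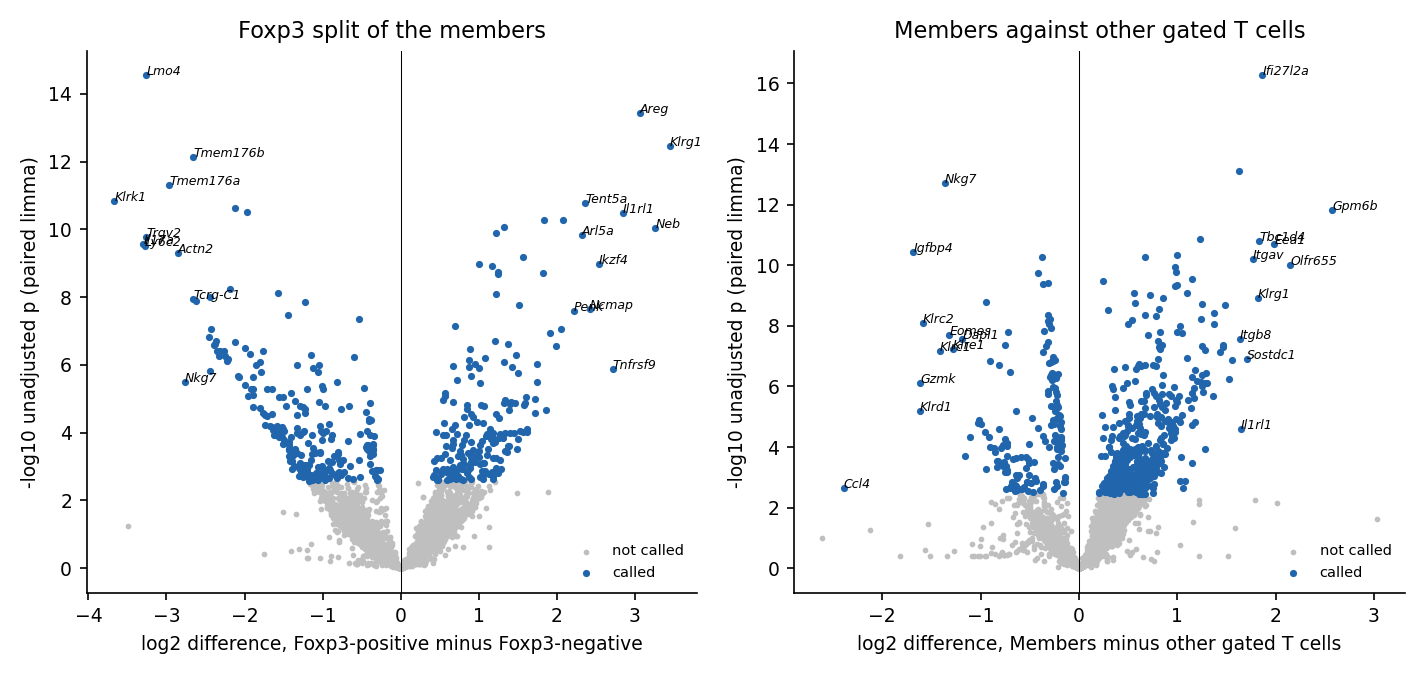
Unadjusted p (as -log10) against log2 difference for each gene in the paired limma tests of Foxp3-positive against Foxp3-negative members (left) and of members against other gated T cells (right). Genes past the adjusted threshold are blue; the 10 largest changes each way are named, with Klrg1 farthest to the right on the left panel at 3.45.

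Between libraries, the levels of members were compared by log2 ratio, with no test. At least 2-fold differences, either way, were found in 412 of 8361 genes (4.93%) for CONV over CONV AsiDNA, 441 (5.27%) for CONV over FLASH and 205 (2.45%) for CONV AsiDNA over FLASH. With a pseudocount of 1 the counts were 1306, 1332 and 944, and with thinned cells 473, 421 and 372. The median log2 ratio over all genes was -0.12, -0.07 and 0.03, in that order. In Foxp3-positive members alone, with 52 to 97 cells a library, the shares were 14.5%, 13.5% and 11.8% of 4081 genes.

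Some genes induced by activation were more often detected in Foxp3-positive members of CONV than in those of the other libraries, and others were not. The genes that follow were picked after their values were seen, so they are a description of 3 mice. Icos, itself induced by activation, was least frequent in CONV, with 60.8%, 80.8% and 82.5% of Foxp3-positive members and 29.9%, 44.2% and 59.6% with thinned cells. As a gene of the rule it helped to choose the cells, so its shares are a description only. Pdcd1, the inhibitory receptor PD-1, was above 0 in 51.5% in CONV (95% interval 41.2% to 61.8%), 11.5% in CONV AsiDNA (95% interval 4.35% to 23.4%) and 22.8% in FLASH (95% interval 12.7% to 35.8%) of Foxp3-positive members. The CONV interval lies above both others. In Foxp3-negative members Pdcd1 was detected in 19.6%, 15.5% and 9.54%, and in other gated T cells in 4.96%, 2.60% and 5.86%. Tnfrsf9 was above 0 in 49.5% in CONV (95% interval 39.2% to 59.8%), 19.2% in CONV AsiDNA (95% interval 9.63% to 32.5%) and 21.1% in FLASH (95% interval 11.4% to 33.9%), again with CONV apart.

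Nr4a1, an immediate gene of T cell receptor signalling, was above 0 in 40.2% in CONV (95% interval 30.4% to 50.7%), 7.69% in CONV AsiDNA (95% interval 2.14% to 18.5%) and 17.5% in FLASH (95% interval 8.75% to 29.9%) of Foxp3-positive members. At least 2 of Nr4a1, Tnfrsf9 and Pdcd1 were above 0 in 48.5%, 3.85% and 17.5% of Foxp3-positive members, in 6.44%, 2.47% and 1.64% of Foxp3-negative members and in 0%, 0% and 0.651% of other gated T cells. The combination was frequent in Foxp3-positive members of CONV and was not detected in the other gated T cells of that library. Pdcd1 and Tnfrsf9 were listed at 0 in Cd79a-positive B cells and C1qa-positive macrophages, but such zeros set no background level in adjusted counts. Nr4a1 was above 0 in 41.4%, 32.7% and 25.6% of the B cells, where CONV was also highest, so this was not particular to T cells. In the macrophages it was above 0 in 48.8%, 58.6% and 54.4%, where CONV was lowest. With each cell thinned to 1000 adjusted counts the order of CONV over the others held, with Pdcd1 in 29.9%, 5.77% and 8.77% and Tnfrsf9 in 34%, 7.69% and 10.5%.

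Klf2, a factor that keeps T cells in circulation, was lowest in CONV. It was above 0 in 6.19% in CONV (95% interval 2.30% to 13%), 55.8% in CONV AsiDNA (95% interval 41.3% to 69.5%) and 40.4% in FLASH (95% interval 27.6% to 54.2%) of Foxp3-positive members, 19.6%, 45.6% and 49.3% of Foxp3-negative members and 41.4%, 48.9% and 61.2% of other gated T cells. CONV was lowest in all 3 kinds of T cell, and also outside T cells, with 82.8%, 94.9% and 93.7% of the B cells and 50.5%, 66.4% and 73.7% of the macrophages, so the order was not particular to T cells. With cells thinned the shares of Foxp3-positive members were 5.15%, 44.2% and 31.6%. The target of Klf2, S1pr1, the receptor used to leave tissues, was above 0 in 27.8%, 53.8% and 42.1% of Foxp3-positive members. Il7r ran the other way, with 90.7%, 57.7% and 73.7%. The part of free RNA of Klf2 was not tested.

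Some of the differences between libraries were shared by other gated T cells and some were not. Lgals1 (galectin-1) was above 0 in 29.9%, 63.5% and 68.4% of Foxp3-positive members, and in 22.2%, 59.7% and 51.5% of other gated T cells. The CONV library was low in both. Ms4a4b, a membrane protein of resting T cells, was above 0 in 32%, 69.2% and 71.9% of Foxp3-positive members but in 70.3%, 61% and 69.7% of other gated T cells. In Foxp3-negative members it was above 0 in 64.9%, 69.3% and 73.4%. With thinned cells the shares were 23.7%, 55.8% and 36.8% in Foxp3-positive members, 44.6%, 56.5% and 62.2% in Foxp3-negative members and 49%, 49.8% and 56.7% in other gated T cells, so CONV was then lowest in each kind of T cell and nearest to CONV AsiDNA in the last. Capg, an actin-capping protein of regulatory and effector cells, was above 0 in 53.6%, 17.3% and 68.4%, lowest in CONV AsiDNA. Nrp1 (neuropilin-1) had the same order, with 29.9%, 3.85% and 31.6%.

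**Figure D4:**
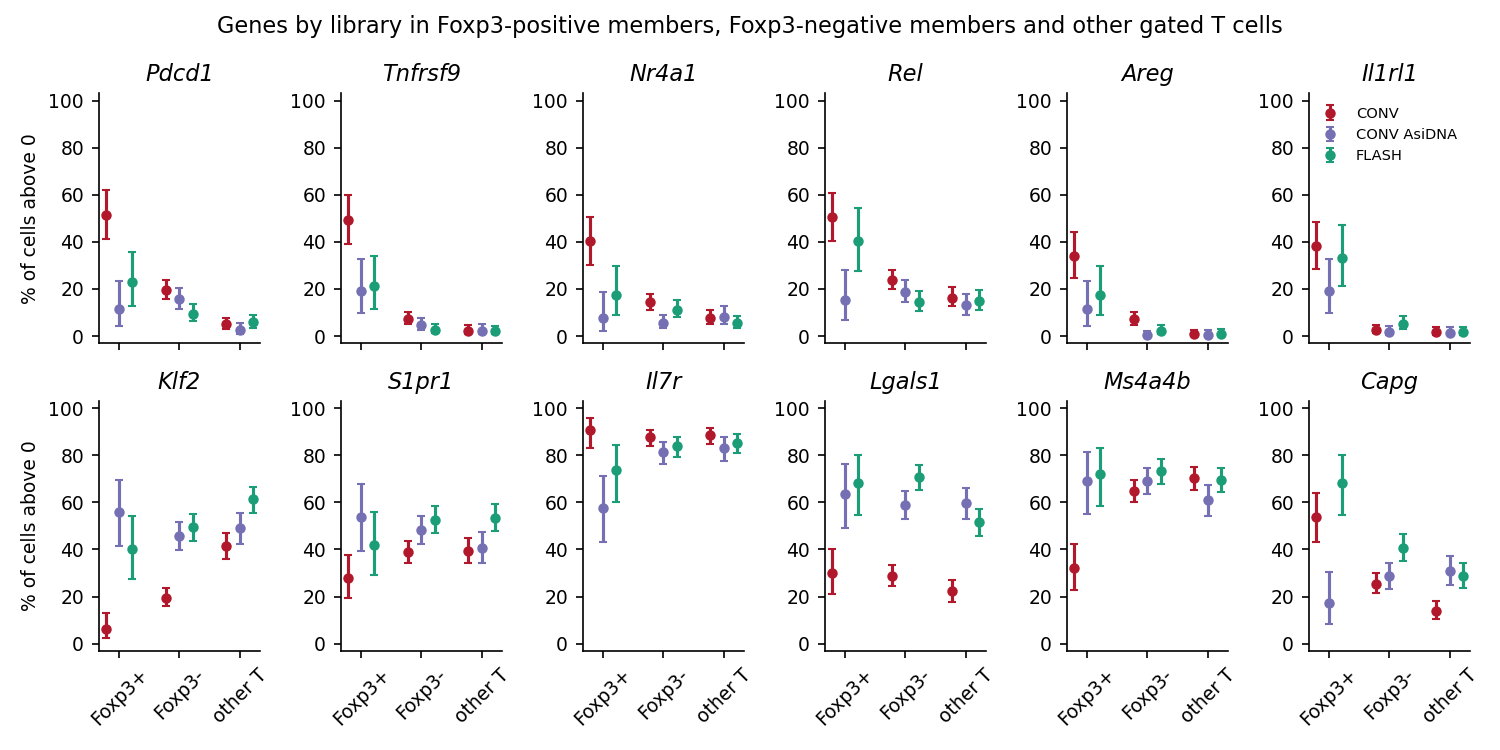
Percent of cells above 0 for 12 genes in Foxp3-positive members, Foxp3-negative members and other gated T cells of each library, with exact 95% intervals. In Foxp3-positive members the CONV point is the highest for Pdcd1, Tnfrsf9 and Nr4a1 and the lowest for Klf2, Lgals1 and Ms4a4b.

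The NF-kB and activation feedback genes were higher in CONV. In Foxp3-positive members 14 of 14 genes were higher in CONV than in CONV AsiDNA, with a median log2 ratio of 1.13 beside -0.07 over all genes, and 10 were higher than in FLASH, with 0.60 beside -0.09. In Foxp3-negative members the medians were 0.60 and 0.53, with 14 and 14 genes higher in CONV. In other gated T cells they were 0.29 and 0.16, with 12 and 10 genes higher in CONV. Of the 14 genes, 1 was listed at 0 in Foxp3-positive members of CONV AsiDNA, and 1 in each kind of T cell of FLASH. A gene listed at 0 counts as higher in CONV through that 0, so these counts and medians include it without a measured ratio. The genes were chosen with earlier results known, and the medians are a description. Rel, a subunit induced by T cell receptor signals, was above 0 in 50.5%, 15.4% and 40.4% of Foxp3-positive members, 23.9%, 18.7% and 14.5% of Foxp3-negative members and 16.3%, 13% and 15% of other gated T cells. Nfkbia, the inhibitor that NF-kB itself induces, was above 0 in 82.5%, 57.7% and 75.4% of Foxp3-positive members, 59.9%, 46.3% and 53.3% of Foxp3-negative members and 47.2%, 40.7% and 46.9% of other gated T cells. Both genes are widely expressed, Rel being above 0 in 60.5%, 63.6% and 61.8% of the B cells and 55.4%, 54.4% and 50.2% of the macrophages and Nfkbia in 10.1%, 23.8% and 18.7% and 73.8%, 82.4% and 87.5%, and the part of free RNA was not tested. Tnfaip3, which encodes the feedback inhibitor A20, was above 0 in 88.7%, 71.2% and 96.5% of Foxp3-positive members, where FLASH and not CONV was highest.

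Promoters of this list are shown because all 14 genes were higher in CONV than in CONV AsiDNA in Foxp3-positive members, 1 through a listing at 0. Over FLASH the genes were divided. Each window runs from 250 bases before to 50 bases after a transcript start, from RefSeq on GRCm38.p6, and 10 of the 14 genes were matched, with 15 windows in all. An NF-kB motif (3 G, then any 2 bases, 3 T and 2 C) was searched on both strands. It was found in 6 of the 15 windows, of Nfkbia, Rel, Tnfaip3 and 3 overlapping or neighbouring windows of Nfkb2, and in 535 of 32851 promoters of all genes (1.63%). The windows lie at chr12:55492598-55492897 for Nfkbia, chr11:23770920-23771219 for Rel and chr10:19015361-19015660 for Tnfaip3, all on the minus strand, with the motif in capitals. The match is a description and no binding was measured.
Nfkbia: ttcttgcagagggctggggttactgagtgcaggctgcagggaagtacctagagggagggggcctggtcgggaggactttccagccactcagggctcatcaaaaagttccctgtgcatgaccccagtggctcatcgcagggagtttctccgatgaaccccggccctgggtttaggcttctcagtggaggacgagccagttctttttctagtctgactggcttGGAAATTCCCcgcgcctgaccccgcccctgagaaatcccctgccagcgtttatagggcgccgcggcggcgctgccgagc
Rel: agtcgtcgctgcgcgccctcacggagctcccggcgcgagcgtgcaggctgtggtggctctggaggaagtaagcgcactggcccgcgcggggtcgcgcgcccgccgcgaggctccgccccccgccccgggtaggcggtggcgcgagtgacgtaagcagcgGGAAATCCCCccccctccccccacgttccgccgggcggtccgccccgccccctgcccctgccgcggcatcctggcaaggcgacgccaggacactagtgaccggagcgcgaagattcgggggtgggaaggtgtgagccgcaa
Tnfaip3: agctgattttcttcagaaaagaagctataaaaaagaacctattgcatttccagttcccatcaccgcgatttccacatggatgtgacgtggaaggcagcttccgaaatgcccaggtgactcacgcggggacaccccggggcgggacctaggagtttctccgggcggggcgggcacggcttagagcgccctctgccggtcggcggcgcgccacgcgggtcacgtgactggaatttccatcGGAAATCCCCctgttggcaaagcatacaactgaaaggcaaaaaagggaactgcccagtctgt

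Other lists are given as median log2 ratios of CONV in Foxp3-positive members, Foxp3-negative members and other gated T cells, in that order. Regulatory T cell genes had 1.08, 0.20 and 0.08 over CONV AsiDNA and 0.45, 0.23 and 0.03 over FLASH. Costimulatory and checkpoint receptors had 0.87, 0.26 and 0.18 over CONV AsiDNA and 0.64, 0.36 and -0.03 over FLASH, and early T cell activation genes 0.70, 0.33 and -0.17 over CONV AsiDNA and 0.74, 0.64 and 0.51 over FLASH. The ratios of all these lists over CONV AsiDNA were higher in Foxp3-positive members than in the other cells, but partly over unlike genes. Only genes with sums of at least 20 in Foxp3-positive members were compared there. That left 14 regulatory genes against 18 in the other cells, 13 receptors against 15 and 12 early activation genes against 12. For the naive and interferon lists below it left 11 against 16 and 11 against 15. Naive and recirculating genes had -0.31, -0.33 and -0.10 over CONV AsiDNA and -0.47, -0.35 and -0.27 over FLASH, beside -0.07, -0.12 and -0.12 and -0.09, -0.07 and -0.05 over all genes, so the value of other gated T cells over CONV AsiDNA is that of all genes. Tissue regulatory T cell genes had 0.69, 0.39 and -0.21 over CONV AsiDNA and 0.10, 0.09 and -0.31 over FLASH, and interferon-stimulated genes -0.27, 0.05 and -0.28 and -0.22, 0.20 and -0.24. Of the lists with at least 8 genes compared, cell cycle genes had the median farthest from 0 over CONV AsiDNA in Foxp3-positive members. Over CONV AsiDNA their medians were -2.40, -0.27 and -0.25. Over FLASH they were -1.0 in Foxp3-negative members and -0.38 in other gated T cells, and for CONV AsiDNA over FLASH -0.73 and -0.06. Of the 22 genes of the list, 13 were listed at 0 in Foxp3-positive members of FLASH and 5 in those of CONV. No median over FLASH is therefore given for Foxp3-positive members, and the -2.40 may rest in part on genes listed at 0. In Foxp3-positive members 14 of the 16 cell cycle genes compared were lower in CONV than in CONV AsiDNA, where 5 of 52 cells carried Mki67, Birc5 or Pclaf, so the median rests on few cells. Dissociation response genes, which rise while tissue is digested, had 0.43, -0.21 and -0.23 over CONV AsiDNA and 0.05, 0.11 and 0.01 over FLASH, and several of them also belong to the early activation list. They moved with the activation genes in Foxp3-positive members of CONV over CONV AsiDNA, and their part in the result was not tested.

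**Figure D5:**
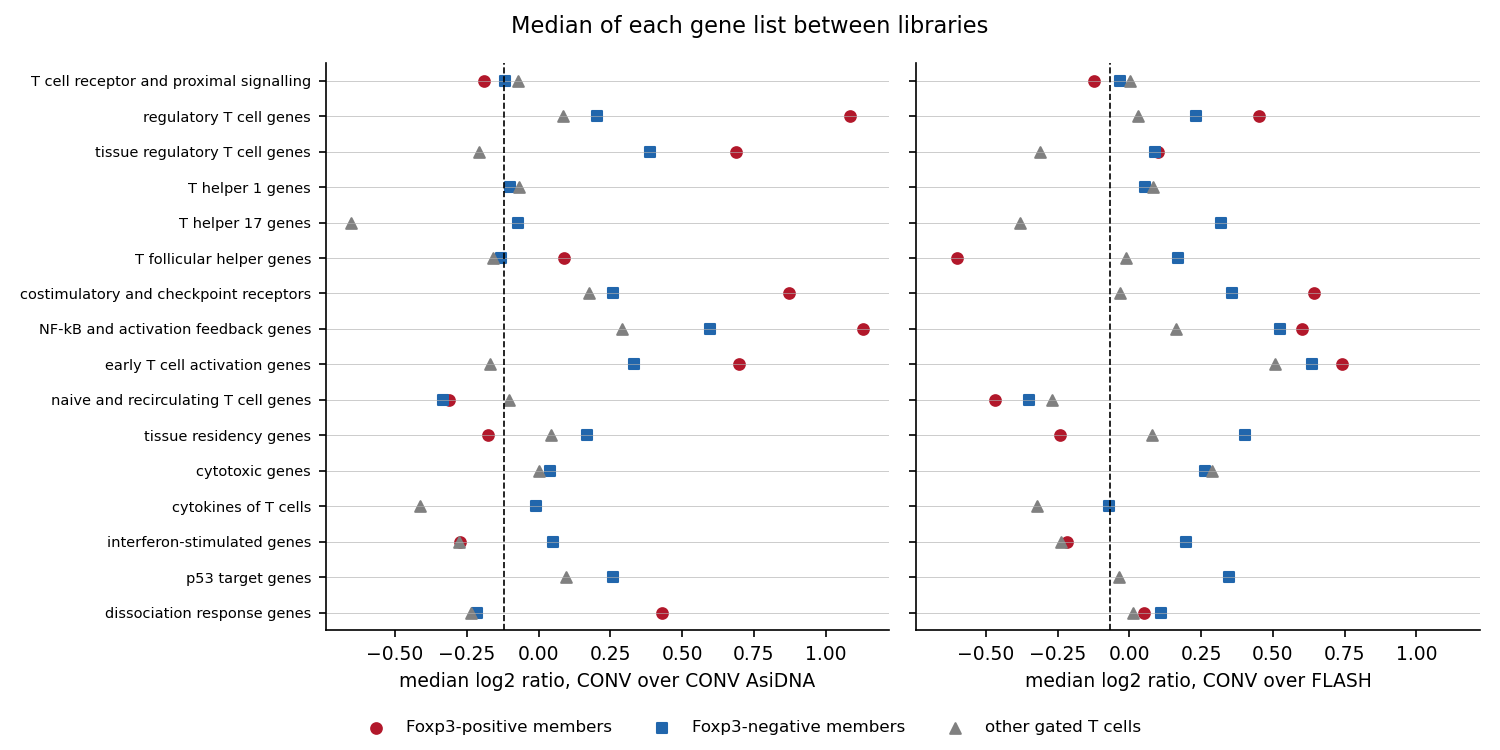
Median log2 ratio of each gene list for CONV over CONV AsiDNA (left) and CONV over FLASH (right) in Foxp3-positive members, Foxp3-negative members and other gated T cells. A point needs at least 8 genes of the list compared, the cell cycle list (-2.40 in Foxp3-positive members on the left) is not drawn, and the dashed line is the median over all genes in members. The NF-kB list reaches 1.13 in Foxp3-positive members on the left.

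By a fixed rule, the 5 genes farthest above and below both other libraries were named for each library. In CONV the genes above were Cd81, a tetraspanin (57.1, 4.40 and 4.92 adjusted CPM), Penk (72.2, 13.2 and 11.5), Tnfrsf9 (144, 39.6 and 28.7), the factor Klf4 (144, 40.4 and 38.5) and Gm5914 (69.8, 17.6 and 18.8). In other gated T cells Tnfrsf9 was at 7.30, 6.38 and 5.82 adjusted CPM and Klf4 at 49.3, 58.7 and 55.3, so neither was higher in CONV by the same margin there. Genes below in CONV were mt-Co3, Itgb2, Taldo1, Acp5 and Dynll1. Itgb2, the common chain of the leukocyte integrins, was at 2.43, 95 and 70.4 in members and 12.8, 74 and 84.4 in other gated T cells. Itgb2 was thus low in CONV in both kinds of T cell.

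In CONV AsiDNA the genes above were Abhd2, Rfk, Icam2, Tuba1a and Sav1, at 17.6 to 32.5 adjusted CPM. Those below were the mitochondrial genes mt-Nd4, mt-Nd2, mt-Co1 and mt-Nd3 and the factor Trerf1. In FLASH the genes above were mt-Co3, mt-Co2, mt-Atp6, mt-Co1 and the histone gene Hist1h1b, and those below Lars2, Jun, Prdx6, Ccl5 and Sptbn1. The mitochondrial transcript mt-Co2 was at 346, 397 and 3109.6 in members and 271, 588 and 3015 in other gated T cells, and was thus high in FLASH in both. The chemokine Ccl5 was at 1088, 1116 and 349 in members but 2696, 3997 and 3405 in other gated T cells. It was lowest in FLASH in members and not in other gated T cells. With thinned cells, Hist1h1b and Jun turned in sign between CONV AsiDNA and FLASH.

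Genes listed at 0 in all members of a library and above 0 in another numbered 37, 37 and 46. Ccl1, a chemokine, was listed at 0 in CONV AsiDNA and had 268 adjusted CPM in CONV. Gm42418, a gene that overlaps ribosomal RNA sequence, was at 21512 in CONV and 21254 in CONV AsiDNA and listed at 0 in FLASH. Whether such a listing comes from the step that adjusted the counts was not tested, and no fold is given for such a gene alone. The medians and counts of gene lists between libraries do include genes listed at 0 in a library.

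Dividing cells were few. At least 1 of Mki67, Birc5 and Pclaf was above 0 in 2.06%, 9.62% and 0% of Foxp3-positive members and 2.86%, 2.83% and 5.92% of Foxp3-negative members. Of the T helper 2 cytokines, Il4, Il5 or Il13 was above 0 in 1.19%, 0.707% and 2.30% of Foxp3-negative members. Il17a, Il17f or Il22 was above 0 in 8.35%, 6.71% and 3.62% of Foxp3-negative members. In p53 target genes, compared between Foxp3-positive and Foxp3-negative members, 1 of 8 tested genes rose, with a median log2 difference of 0.25. The gene that rose was Trp53inp1, at 1.08 ± 0.16 SE (adjusted p = 8.1e-05) in limma. In interferon-stimulated genes, 2 of 15 tested genes rose, with a median log2 difference of 0.14. Over all genes tested 191 of 8351 (2.29%) rose, so nothing is read about either list from such small counts.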

How the data were processed

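Lung cells of 3 irradiated mice had been profiled by droplet single-cell RNA sequencing. The submitters' processing notes name Cell Ranger 6.0.0 and mm10. The values deposited are natural log values, ln(1 + whole number), and the step by which the authors adjusted the counts is not stated in the labels or in the methods, which cite an earlier description that was not read, so count models were not used and a value of 0 need not mean absence. Each value was returned to its whole number (deviation at most 3.0e-11) and termed an adjusted count. Cells with at least 200 genes and at most 20% mitochondrial counts were kept. Members, gene lists and rules were chosen with earlier results of these data known. Adjusted counts were summed per library over Foxp3-positive members, Foxp3-negative members and other gated T cells and expressed as log2(adjusted CPM + 10). Genes with sums of at least 20 were tested with limma 3.58.1 in R 4.3.3, with the mouse as block and Benjamini-Hochberg adjustment (median prior degrees of freedom 23.4 and 20.8). The procedure was tested on simulated data. Libraries were compared by log2 ratio with no test, a 2-fold difference being the limit. Named genes were those of the rule and the lists, the 10 with the highest and the 10 with the lowest log2 difference among genes past an adjusted p of 0.05 in each limma contrast, and for each library the 5 farthest above and the 5 farthest below both others. Of the lists, 2 genes are not reported here. Thinning drew 1000 adjusted counts per cell. The rule was reapplied for the shares of members, the limma tests and the ratios between libraries. Shares of cells above 0 for single genes with thinned cells kept the members and Foxp3 classes of the unthinned values. Positions are those of GENCODE vM21, and promoters those of RefSeq. Python 3.11.15, numpy 2.4.6, pandas 2.3.3 and scipy 1.17.1 were used. No doublet caller was run, and cells with the few markers of other lineages named above were removed in an alternative. Not used here were 4 tables, of which 3 hold the authors' own comparisons (fold changes and p-values) and 1 holds 12 columns of per-sample values that match no sample.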

Additional observations from a re-analysis of the deposited data

Results flagged for a closer look

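In 5 genes, each detected in at least 20 Foxp3-positive members over the 3 libraries, the log2 difference between Foxp3-positive and Foxp3-negative members pointed opposite ways in 2 libraries by at least 1 on each side. The difference between libraries was not tested, since each group holds 1 mouse. Trat1, an adaptor of the T cell receptor, was at -1.43 in CONV and 1.02 in CONV AsiDNA. Capg, an actin-capping protein, was at 1.28 and -1.25 in the same libraries. Dgat1, an enzyme of triglyceride synthesis, was at 1.23 and -1.10. Ltb4r1, the receptor for leukotriene B4, was at 1.13 and -2.20. Gbp2, an interferon-induced GTPase, was at -1.25 in CONV and 1.19 in FLASH. For Capg the shares of Foxp3-positive members were 53.6%, 17.3% and 68.4% and of Foxp3-negative members 25.5%, 28.6% and 40.8%, in the order CONV, CONV AsiDNA and FLASH.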

How the results depend on the processing

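Shares are in the order CONV, CONV AsiDNA and FLASH. The share of members was 2.86%, 1.72% and 2.46% with Cd4 also required, 5.02%, 2.64% and 3.51% with 3 of the 7 genes, 4.47%, 2.48% and 3.05% with cells thinned to 1000 adjusted counts and 6.73%, 3.60% and 4.61% without cells carrying innate-like T cell genes, an alternative added after seeing the data, with CONV highest and CONV AsiDNA lowest each time. The Foxp3-positive share was 29.7%, 27.2% and 25.9% with 3 of the 7 genes and 22.6%, 19.9% and 19.7% without innate-like cells. With Cd4 required it was 18.1%, 19.2% and 16.9%, where CONV AsiDNA and not CONV was highest. In the limma test of Foxp3-positive against Foxp3-negative members, genes that rose numbered 51 with Cd4 required and 19 thinned, and genes that fell 55, 31, 140 with 3 of 7 and 157 without innate-like cells. Leaving out each library gave 87 to 152 that rose and 124 to 191 that fell. In members against other gated T cells, 318 rose when thinned, 770 rose without innate-like cells, 333 fell with 3 of 7, and leaving out each library gave 59 to 514 that rose and 22 to 189 that fell, the lowest without FLASH. At least 2-fold differences between libraries numbered 1306, 1332 and 944 with a pseudocount of 1. For CONV AsiDNA over FLASH they were 338 with Cd4, 372 thinned and 127 with sums of at least 50. Signs turned with thinned cells for Trac (-0.11), Birc3 (-0.57), Rgs16 (-0.023) and Crem (-0.35) in the Foxp3 test, and for Mki67 (-0.59), Top2a (-0.32), Tubb5 (-0.28), Tuba1b (-0.69), Birc5 (-0.44), Cenpf (-0.18), Nusap1 (-0.49) and Ube2c (-0.51) in the test of members. With Cd4 required they turned for Tuba1b (-0.11) and Birc5 (-0.27), and with 3 of 7 for Cd40lg (-0.021) and Bcl2a1b (-0.066). For CONV AsiDNA over FLASH, Hist1h1b (0.90) and Jun (-0.38) turned when thinned, and Il1rl1 in Foxp3-positive members (0.48) with Cd4 required. The causes were not tested. Of the listed and named genes that passed, 15 of 88 kept their call under every alternative in the Foxp3 test and 28 of 112 in the test of members. Leaving out a library leaves 1 residual degree of freedom beside the spread pooled over genes.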

Other observations

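Further genes of the lists, picked after their values were seen, rose in members against other gated T cells in the paired limma test, with shares in the order CONV, CONV AsiDNA and FLASH. The regulators of G protein signalling Rgs1, Rgs2 and Rgs16, which dampen chemokine responses, rose by 0.99 ± 0.09 SE (adjusted p = 1e-07), 0.86 ± 0.09 SE (adjusted p = 4.1e-07) and 1.24 ± 0.18 SE (adjusted p = 5.9e-05). Rgs1 was above 0 in 48.3%, 38.2% and 47.9% of members and 28.9%, 22.5% and 27.7% of other gated T cells. Ccr4, a chemokine receptor of skin- and lung-homing helper and regulatory cells, was above 0 in 12.2%, 15.5% and 19.1% against 2.92%, 10.4% and 8.79%, a limma log2 difference of 1.20 ± 0.17 SE (adjusted p = 5.6e-05). The factors Batf and Irf4, which act together in effector and tissue regulatory cells, rose by 0.83 ± 0.14 SE (adjusted p = 2.4e-04) and 1.37 ± 0.21 SE (adjusted p = 1.4e-04). Of the cytokines, Il2 and Tnfsf11, the latter encoding RANK ligand, rose by 1.25 ± 0.18 SE (adjusted p = 3.8e-05) and 1.02 ± 0.16 SE (adjusted p = 1.4e-04). Tnfsf11 was above 0 in 10.5%, 15.2% and 12.5% of Foxp3-negative and 5.15%, 7.69% and 5.26% of Foxp3-positive members, a limma log2 difference that did not pass (-0.80 ± 0.28 SE (adjusted p = 0.115)). Without the FLASH library the limma adjusted p was 0.0633 for Rgs16, 0.127 for Ccr4, 0.158 for Irf4 and 0.0583 for Tnfsf11. With Cd4 required it was 0.0850 for Batf and 0.0584 for Il2, for which it was 0.122 with 3 of the 7 genes, and thinned cells gave 0.0864 for Irf4.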
